A study of Mus musculus with 12 samples.

Results

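The 9 genes described here make, carry, sense and break down retinoic acid, the active form of vitamin A, and were followed in the neonatal mouse brainstem after repeated morphine. They are Aldh1a1, Aldh1a2, Aldh1a3, Crabp1, Crabp2, Stra6, Rara, Rarb and Cyp26b1. They were picked by their symbols from the 55418 genes of the count table, with earlier results of these data known. All 9 were present and passed the filter on low counts in each comparison. The lowest count of any of them in a library was 18 reads, for Aldh1a3 in saline male 3.

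The 12 animals were outbred CFW (Swiss Webster) pups with no engineered allele named in the labels, killed at P15 and given either physiological saline or morphine. Each treatment was given to 3 females and 3 males, which makes 4 groups of 3. Morphine mice had received 15 mg/kg subcutaneously, 2 times a day from P1 to P14, and tissue was taken 16 h after the last injection, in spontaneous withdrawal. Saline mice had the same schedule of injections. Each library came from the medulla and pons of 1 mouse. The study split each litter at random between saline and morphine, and the labels do not name the dam. Littermates could thus sit in the same group or in groups of different treatment. The p values therefore rest on the spread between these 12 mice, with no term for family.

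Retinol reaches cells on the carrier Rbp4 and can enter them through the membrane receptor Stra6. Retinol dehydrogenases turn it into retinaldehyde, and the retinaldehyde dehydrogenases Aldh1a1, Aldh1a2 and Aldh1a3 turn that into retinoic acid. Crabp1 and Crabp2 bind retinoic acid in the cytoplasm, the receptors Rara and Rarb act with RXR partners on response elements in DNA, and the Cyp26 enzymes clear the ligand. In the brain, Aldh1a2 and Crabp2 are known as genes of the meninges, the membranes around the brain, while Rarb is a textbook target that retinoic acid itself induces.

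That property of Rarb can be read in its promoter, which is shown because it carries the only match among the members. A retinoic acid response element of the DR5 type is 2 copies of a 6-base half-site (A or G, G, G or T, TCA) in the same orientation with a spacer of 5 bases. The sequence runs from 250 bases before to 50 after the start of the RefSeq transcript (chr14:16575427-16575726, minus strand, GRCm38.p6), with the element in capitals.
Rarb: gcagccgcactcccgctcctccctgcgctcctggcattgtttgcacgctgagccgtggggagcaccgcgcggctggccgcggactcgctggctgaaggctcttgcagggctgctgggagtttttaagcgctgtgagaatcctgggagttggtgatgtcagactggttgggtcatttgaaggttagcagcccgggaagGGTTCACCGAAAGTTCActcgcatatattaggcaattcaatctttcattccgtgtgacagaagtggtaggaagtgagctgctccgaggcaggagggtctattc
The element lay 53 to 37 bases before the start. On both strands, DR5 was found in 32 of 32851 promoters of this length (0.0974%) and in 1 of the 14 promoter entries of the members, which covered 7 of the 9 genes. Spacers of 1 base (DR1, 0.222% of all promoters) and 2 bases (DR2, 0.268%) gave no match in the members. A match is a description of the letters and not a measured site.

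Between 27850565 and 48097947 reads were counted per library, with a median of 33214511. The hindbrain marker Slc6a5, the glycine transporter of inhibitory neurons, stood at 468 to 636 CPM (counts scaled to the size of the library). The 12 Hox genes of the caudal spinal cord summed to at most 0.239 CPM, although the deposited extraction text speaks of spinal cords. Some libraries stood apart. Morphine male 6 had 380 CPM of Xist, the RNA of the inactive X chromosome, against at most 2.65 CPM in the other males and 550 to 979 CPM in females, with 12.8 CPM of the Y-linked Ddx3y against at least 115 CPM in the other males. Saline males 1 and 2 differed from saline male 3 in many genes, the receptor genes of this pathway included. Without saline male 3, 28.6% of genes in males and 24.1% in the interaction passed the thresholds given below.

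Among the 6 saline mice, the members spanned a wide range of levels per kilobase of exon. Aldh1a1 was highest with 25.9 ± 3.84 CPM per kilobase (SD, n = 6), and its lowest saline mouse (22.5) lay above the highest value of any other member. Cyp26b1 followed with 6.80 ± 1.34, then Aldh1a2 with 5.77 ± 1.45, Crabp1 with 4.90 ± 1.94 and Crabp2 with 2.87 ± 0.674. The ranges of neighbours in this order overlapped, although the lowest Cyp26b1 value (5.46) lay above the highest Crabp2 value (3.96). Crabp2 and Rara were the other separated step, with a lowest value of 2.24 against a highest of 1.76. Rara (0.933 ± 0.528), Rarb (0.411 ± 0.101), Stra6 (0.348 ± 0.132) and Aldh1a3 (0.204 ± 0.0626) made up the low end, again with overlapping neighbours. The enzyme that clears retinoic acid was thus measured at a level close to that of Aldh1a2 and below that of Aldh1a1.

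**Figure D1:**
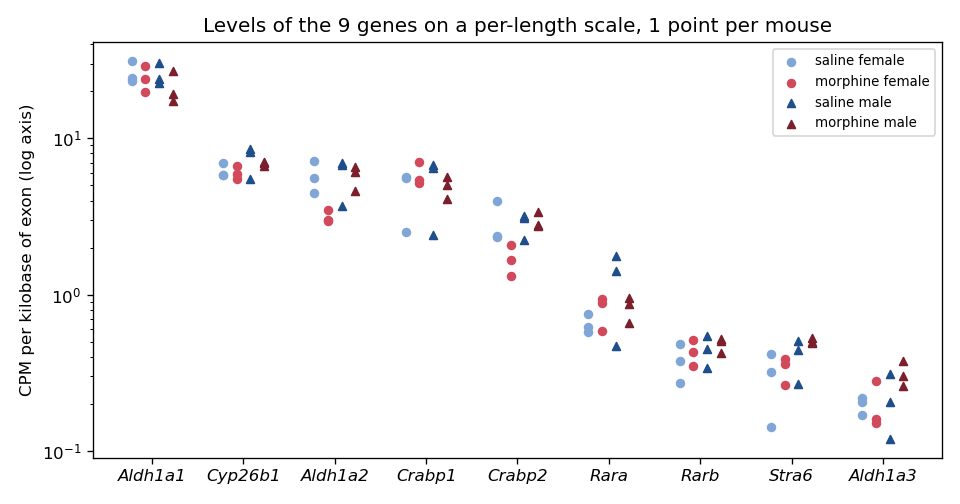
Level of each of the 9 genes in CPM per kilobase of exon (vertical log axis), ordered by the mean of the saline mice, with 1 point per mouse and colour and shape for the 4 groups of 3. Aldh1a1 stands alone at the top, and the morphine females sit at the bottom of the columns for Aldh1a2 and Crabp2.

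The comparisons ask whether repeated morphine changed these genes in both sexes together, in each sex alone, and differently in the sexes. Genes were counted as differentially expressed (DE) when p in the quasi-likelihood test of edgeR, before adjustment, was under 0.05 and the log2 fold change exceeded 0.26 in either direction. With this rule, 1.19% of 18608 tested genes were DE in the sex-combined comparison, 1.81% of 18109 in females, 2.99% of 18166 in males and 2.94% of 19027 in the interaction of treatment and sex. No gene had a Benjamini-Hochberg adjusted p under 0.05 in any of the 4 edgeR fits, while 246, 343, 543 and 559 genes had an unadjusted p under 0.05. The exact test of edgeR gave 3 such genes in females, 1 in males and 0 in both sexes together, and DESeq2 gave 3 in females and 0 in the other comparisons. Of the 9 members, 0 were DE in the sex-combined comparison, 2 in females, 0 in males and 2 in the interaction. The pair was Aldh1a2 and Crabp2 in both cases. The study had already reported lower Aldh1a2 in morphine females from these data, so the counts of members are not an independent test.

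Aldh1a2 was lower in every morphine female than in every saline female. The gene (chr9:71215789-71296243, plus strand, GRCm38) encodes the retinaldehyde dehydrogenase of embryonic and meningeal retinoic acid synthesis. Saline females 4, 5 and 6 had 12.6, 10.1 and 16.3 CPM, and morphine females 1, 2 and 3 had 6.77, 7.86 and 6.69 CPM. The groups did not overlap, and the morphine females lay closer to each other than the saline females did. Their means were 7.11 ± 0.653 and 13.0 ± 3.12 CPM (SD, n = 3). Aldh1a2 fell by 0.88 on the log2 scale (SE 0.19, 95% interval -1.30 to -0.46), with adjusted p = 1 in edgeR. In an exact permutation test (two-sided) the females gave p = 0.1, the smallest that 3 mice against 3 allow. Groups that did not overlap were found for 5.67% of genes in females, 8.86% in males and 0.0376% between the 6 saline and 6 morphine mice. The adjusted p of this gene in females ranged from 0.00027 without a filter on low counts to 1, with 0.0693 in DESeq2. In bulk tissue, fewer cells of a type and less RNA per cell cannot be told apart.

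In males, Aldh1a2 did not separate the treatments. Saline males 1, 2 and 3 had 8.39, 15.3 and 15.8 CPM, and morphine males 4, 5 and 6 had 13.8, 14.9 and 10.4 CPM. The log2 fold change was -0.05 (SE 0.28, interval -0.72 to 0.62, adjusted p = 1 in edgeR). Without morphine male 6 it was 0.08 and without saline male 3 it was 0.13, so the sign of this value was not settled. The change in males minus that in females was 0.85 on the log2 scale (SE 0.36, interval 0.07 to 1.63), with adjusted p = 0.985 in edgeR. It was 0.99 without morphine male 6 and 0.97 without saline male 3, where 24.1% of all genes passed, and the call was lost in 7 of 12 fits with single mice left out. With both sexes together the change was -0.44 (SE 0.21, interval -0.89 to 0.02), short of the threshold, with p = 0.125 in an exact permutation test within each sex. It passed the thresholds in 3 of 12 fits with single mice left out, namely without saline male 1 (-0.60), morphine male 4 (-0.50) or morphine male 5 (-0.53).

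The other synthesis enzymes gave no DE call in any comparison. Aldh1a1 (chr19:20492715-20643465) stood at 115 to 154 CPM in saline females, 97.8 to 144 in morphine females, 111 to 151 in saline males and 85.7 to 133 in morphine males. The ranges overlapped in both sexes, and the sex-combined change was -0.19 (interval -0.49 to 0.10, adjusted p = 1 in edgeR). Aldh1a3 (chr7:66390890-66427517, minus strand) was the least abundant member, at 0.552 to 1.74 CPM over the 12 mice. Saline males 1, 2 and 3 had 0.949, 1.43 and 0.552 CPM and morphine males 4, 5 and 6 had 1.20, 1.38 and 1.74 CPM, so the male groups shared part of their range. Its change in males was 0.52 (interval -0.37 to 1.40, adjusted p = 1 in edgeR), and it became a DE call without saline male 2 (0.91). In females the change of Aldh1a3 was -0.01, with an interval from -0.78 to 0.77.

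**Figure D2:**
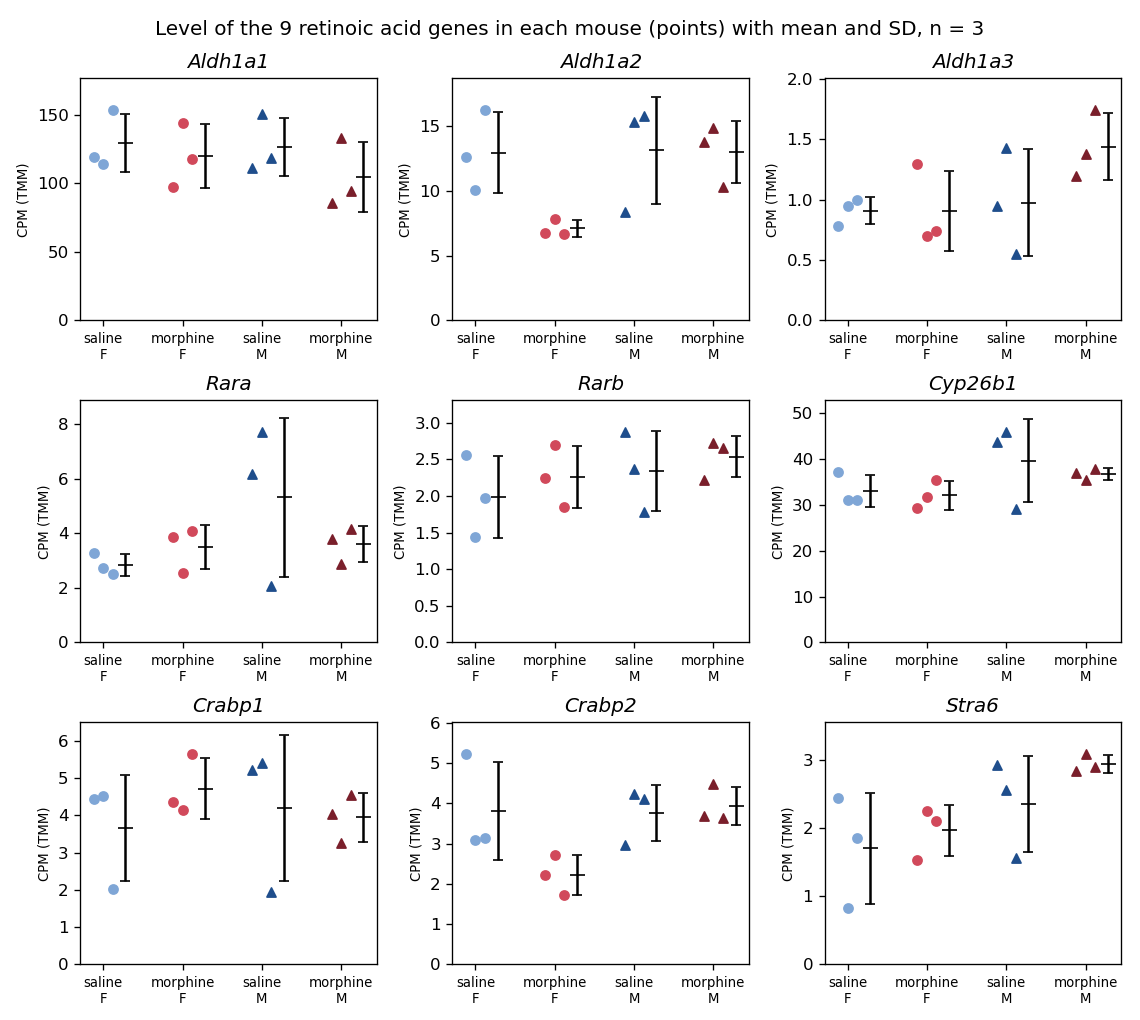
CPM after TMM scaling (vertical axis, from 0) of each of the 9 genes in the 12 mice, with 1 point per mouse and the mean with SD (n = 3) at the right of each group. In Aldh1a2 and Crabp2 the 3 morphine females lie below the 3 saline females, while saline male 3 is the lowest male in Rara, Cyp26b1 and Crabp1.

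Crabp2, which delivers retinoic acid to its nuclear receptors, was the second member to fall in females (chr3:87948666-87953376, plus strand). Saline females 4, 5 and 6 had 5.23, 3.09 and 3.14 CPM, and morphine females 1, 2 and 3 had 2.22, 2.73 and 1.74 CPM. The groups did not overlap, but the highest morphine female came close to the lower pair of saline females. Crabp2 fell by 0.78 on the log2 scale (SE 0.27, interval -1.38 to -0.18), with adjusted p = 1 in edgeR and p = 0.1 in an exact permutation test, again the smallest possible. The call was lost without saline female 4 (-0.49) and without morphine female 3 (-0.63), while Aldh1a2 stayed a DE gene in females whichever of the 6 mice was left out.

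In males Crabp2 stood at 2.97, 4.23 and 4.11 CPM in saline mice 1, 2 and 3 and at 3.68, 4.48 and 3.64 CPM in morphine mice 4, 5 and 6. These ranges overlapped, and the change was 0.03 (interval -0.49 to 0.55, adjusted p = 1 in edgeR). The difference between the sexes was 0.83 (SE 0.36, interval 0.04 to 1.62), with adjusted p = 0.985 in edgeR, and 0.88, still past the thresholds, without morphine male 6. The interaction call of Aldh1a2 remained in 5 of 12 fits that each left out 1 mouse, and that of Crabp2 in 6 of 12. Its lowest value, 0.51, came without saline female 4, and that of Aldh1a2, 0.61, without saline male 1.

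Crabp1, a close relative of Crabp2 that binds retinoic acid in neurons, was not DE in any comparison (chr9:54764748-54773110). Saline females 4, 5 and 6 had 4.45, 4.53 and 2.03 CPM and morphine females 1, 2 and 3 had 4.37, 4.15 and 5.65 CPM. The lowest saline female was saline female 6, and among saline males it was saline male 3, with 1.93 CPM against 5.22 and 5.42. The change was 0.36 in females (interval -0.28 to 1.00) and -0.11 in males (interval -1.04 to 0.81), with adjusted p = 1 for both in edgeR. The estimates of the binding proteins therefore had opposite signs in females, with an interval for Crabp1 that includes 0.

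**Figure D3:**
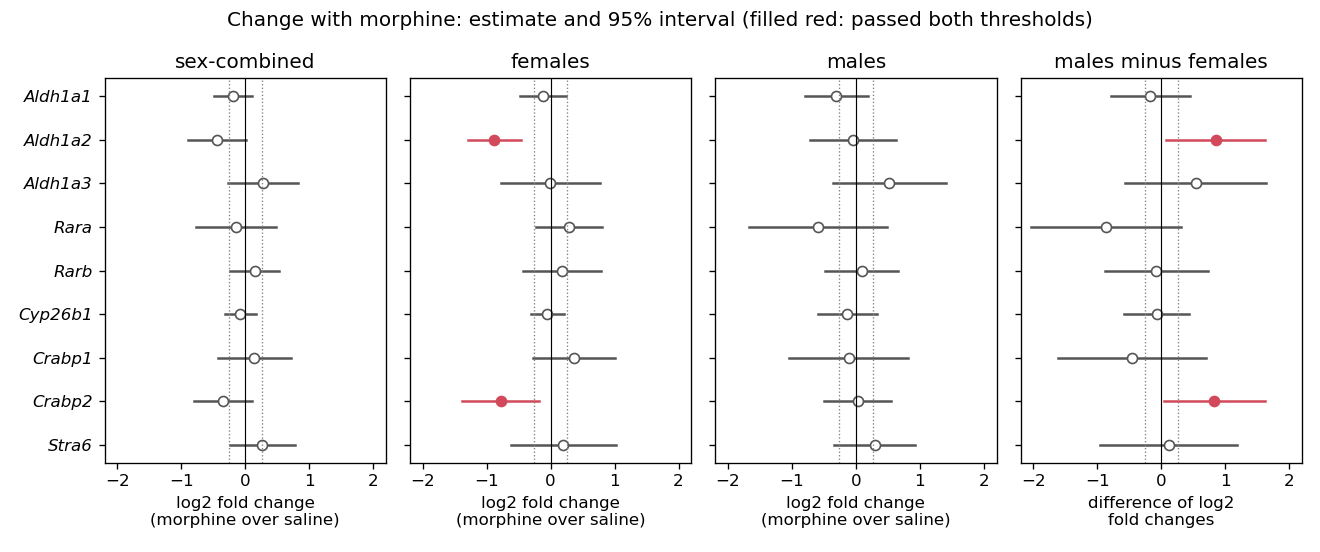
Log2 fold change of morphine over saline with its 95% interval for the 9 genes, in both sexes together, in females and in males, and the change in males minus that in females (last panel). Filled red points passed both thresholds, the dotted lines mark 0.26 on either side of 0, and only Aldh1a2 and Crabp2 are filled, in females and in the last panel.

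Stra6, the retinol receptor at the cell surface (chr9:58063788-58153996), was low in every library. Saline females 4, 5 and 6 had 2.44, 0.826 and 1.86 CPM, and morphine females had 1.54, 2.26 and 2.11 CPM. Saline males 1, 2 and 3 had 2.94, 2.56 and 1.57 CPM against 2.84, 3.09 and 2.90 CPM in morphine males 4, 5 and 6. Both pairs of groups overlapped, and the 3 morphine males were nearly alike. The sex-combined change was 0.26 with an interval from -0.25 to 0.77 (adjusted p = 1 in edgeR).

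Neither receptor gene was DE, and Rara was most spread among the saline males. Rara (chr11:98927818-98974942) stood at 6.17, 7.70 and 2.06 CPM in saline males 1, 2 and 3, so that 1 group held both the highest and the lowest value of the 12 mice. Morphine males 4, 5 and 6 had 3.77, 2.86 and 4.14 CPM, between these extremes. The change in males was -0.59 (interval -1.67 to 0.49, adjusted p = 1 in edgeR) and became -0.94 (adjusted p = 0.0283) without saline male 3, a fit in which 28.6% of all genes passed as well. In females the saline mice had 2.51 to 3.28 CPM and the morphine mice 2.55 to 4.06, with a change of 0.29 (interval -0.23 to 0.80).

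Some other genes of the nuclear complex showed the same split of the saline males, and some did not. Rxra, a partner receptor, had 57.9, 61.5 and 23.0 CPM in saline males 1, 2 and 3, and Rxrb had 47.3, 51.7 and 13.5 CPM. Ppard, a receptor that can also take retinoic acid from Fabp5, had 30.3, 32.5 and 6.35 CPM. In each of these genes saline males 1 and 2 were the highest and saline male 3 the lowest of the 12 mice. The coactivator gene Ncoa1 had 91.2, 88.5 and 92.0 CPM in saline males 1, 2 and 3, with no such split. Nrip1 (33.8, 34.0 and 49.3 CPM) and Ncor1 (148.9, 141.2 and 161.2 CPM) were highest in saline male 3 among these mice. The split was thus not a trait of the complex as a whole, and no cause of it was tested.

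Rarb (chr14:16430839-16819156, minus strand), the target with the DR5 element printed above, ranged from 1.44 to 2.88 CPM over the 12 mice. The printed promoter lies within this annotated span. Counts were taken per gene over all its transcripts, so they do not measure the transcript of that promoter alone. Saline females 4, 5 and 6 had 2.56, 1.44 and 1.97 CPM, and morphine females 1, 2 and 3 had 2.25, 2.70 and 1.85 CPM. In these morphine females, which had less Aldh1a2 and Crabp2 than the saline females, the Rarb values overlapped the saline range. The change of Rarb was 0.18 in females (interval -0.43 to 0.79) and 0.09 in males (interval -0.49 to 0.66), with adjusted p = 1 for both in edgeR. The intervals are wide, so a moderate change in either direction remains possible. Exons of Rarb overlap those of Top2b on the opposite strand, which stood at 133 to 239.6 CPM, and the sources used here do not state whether reads were counted by strand, so the counts of Rarb are uncertain.

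Cyp26b1, the enzyme that oxidises retinoic acid (chr6:84571414-84593908, minus strand), gave the narrowest interval of the 9 genes in the sex-combined comparison. It stood at 31.0 to 37.2 CPM in saline females and 29.3 to 35.4 CPM in morphine females. Saline males 1, 2 and 3 had 43.9, 46.0 and 29.2 CPM and morphine males 4, 5 and 6 had 36.9, 35.5 and 38.0 CPM. The morphine males lay inside the range of the saline males, with saline male 3 again at the bottom. The sex-combined change was -0.08 (interval -0.32 to 0.17, adjusted p = 1 in edgeR). Without saline male 3 the change in males was -0.28 and counted as DE. Its relatives Cyp26a1 and Cyp26c1 reached at most 0.306 and 0.119 CPM and were not tested.

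Aldh1a2 and Crabp2 are genes of the meninges, and markers of meningeal fibroblasts were also lower in the morphine females. Of 15 markers, 6 were DE and lower in females, where 1.81% of all genes were DE. An estimate below 0 was found for 14, with a median log2 fold change of -0.62 against -0.01 over all genes. The list was chosen with earlier results of these data known, so these counts are not an independent test. The 6 were Col3a1 (-0.87) and Dcn (-0.76), which encode collagen and a proteoglycan of the matrix, Fmod (-0.61) and Mgp (-0.39), also of the matrix, and the transporters Slc6a13 (-0.75) and Slc6a20a (-0.62). In males 0 of 15 were DE and the median was -0.12. With both sexes together Mgp (-0.34) and Dcn (-0.49) were DE, and in the interaction Slc6a13 (0.84) and Slc6a20a (0.87). With single mice left out these calls remained in 2 of 12 fits for Mgp, 5 of 12 for Dcn, 3 of 12 for Slc6a13 and 6 of 12 for Slc6a20a. In females Fmod, Dcn and Slc6a13 kept their calls in 6 of 6 such fits, Slc6a20a in 3 (it was -0.30 without saline female 6), and Col3a1 and Mgp in 2. The count in females was 11 without morphine female 2, 9 without saline female 4, and 3 without morphine female 1 or without morphine female 3, in fits where 3.73%, 7.95%, 1.12% and 1.52% of all genes were DE.

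The summed level of the 15 markers was 249.6, 280 and 356 CPM in saline females 4, 5 and 6 and 174, 273 and 177 CPM in morphine females 1, 2 and 3. Morphine females 1 and 3 were below all saline females, and morphine female 2 was inside the saline range although its Aldh1a2 (7.86 CPM) was below each of them. In saline males the sum was 246 to 364 CPM and in morphine males 234 to 325 CPM. Aldh1a2 amounted to 5.05%, 3.60% and 4.58% of the sum in saline females 4, 5 and 6 and to 3.89%, 2.88% and 3.78% in morphine females 1, 2 and 3. Taken against the markers in this way, the female groups overlapped. Crabp2 amounted to 2.10%, 1.10% and 0.883% against 1.27%, 1.00% and 0.982%, which also overlapped. The sum includes Slc13a3, the only marker with an estimate above 0 in females (0.08). Slc13a3 had 40.6, 38.6 and 37.3 CPM in saline females 4, 5 and 6. It had 34.4, 41.0 and 48.2 CPM in morphine females 1, 2 and 3, so the shares depend in part on this gene. The part of the markers in the changes of Aldh1a2 and Crabp2 was not tested.

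**Figure D4:**
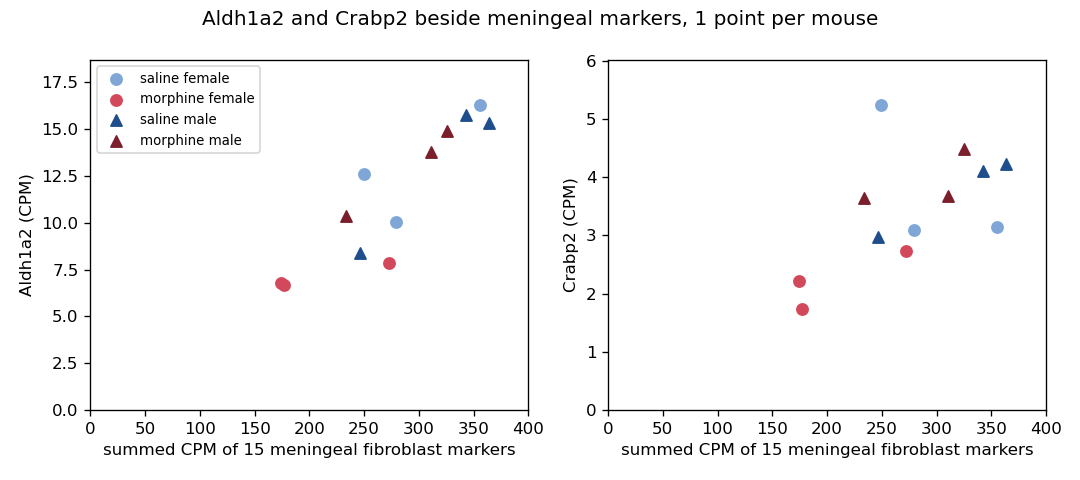
CPM of Aldh1a2 (left) and Crabp2 (right) on the vertical axis against the summed CPM of 15 meningeal fibroblast markers, with 1 point per mouse and colour and shape for the 4 groups. Morphine females 1 and 3 lie at the low end of both axes, and morphine female 2, at a marker sum of 273 CPM, lies below the saline females for both genes.

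The genes whose levels most resembled the DE members were taken by Pearson's r of log2 CPM over the 12 mice, among genes with a mean of at least 1 CPM. For Aldh1a2 they were Serpind1 (r = 0.964), Slc13a4 (0.929), Fmod (0.915), Fgfbp1 (0.911) and Gstm2 (0.907). For Crabp2 they were Rbp4 (0.906), Fgfbp1 (0.864), Gstm2 (0.825), Scara3 (0.824) and Hcar1 (0.821). Serpind1 stood at 8.14, 6.64 and 10.3 CPM in saline females 4, 5 and 6 and at 2.83, 4.09 and 3.10 CPM in morphine females. The 12 points share treatment and sex, and these values describe likeness only.

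Of 33 further genes of the retinoid pathway in the table, 25 passed the filter on low counts, and 1 was DE. Its calls were in females and in both sexes together, where 1.81% and 1.19% of all genes were DE. This gene was Rbp4 (chr19:38116629-38125281, minus strand), the carrier that brings retinol to cells. Saline females 4, 5 and 6 had 4.97, 3.52 and 3.60 CPM of Rbp4 and morphine females 1, 2 and 3 had 2.46, 2.93 and 1.99 CPM. The female groups did not overlap, and Rbp4 fell by 0.71 on the log2 scale (SE 0.23, interval -1.21 to -0.21, adjusted p = 1 in edgeR). Saline males 1, 2 and 3 had 4.54, 5.42 and 4.24 CPM and morphine males 4, 5 and 6 had 3.50, 4.61 and 3.81 CPM. Rbp4 was lower with both sexes together (-0.48, SE 0.16), with p = 0.015 in an exact permutation test within each sex. In females the exact permutation test gave p = 0.1, the smallest possible. Rbp4 was the only gene outside the members given this test and the only call of the 25. These p values take no account of that choice. Males alone (-0.28, interval -0.76 to 0.20) and the interaction (0.45, interval -0.21 to 1.11) missed the threshold. It was a DE gene in females and in both sexes together whichever mouse was left out.

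The rest of the pathway gave no call. Retinol dehydrogenases and reductases that act before Aldh1a2 included Rdh10 (-0.17 in females and 0.14 in males) and Dhrs3 (-0.09 and -0.07). The median over the 25 genes was -0.03 in females and -0.08 in males, against -0.01 and -0.06 over all genes. Ttr, which carries Rbp4 in blood and is made by the choroid plexus, ranged from 1.28 to 776 CPM and was lowest in saline female 4.

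Of 20 genes known to respond to retinoic acid, 16 were tested and 2 were DE, in different comparisons and opposite directions. There was 1 in both sexes together and 1 in females, where 1.19% and 1.81% of all genes were DE. Hoxb4, a hindbrain patterning gene with retinoic acid elements, was lower with both sexes together (-0.33, SE 0.14, adjusted p = 1 in edgeR). Rai1, a gene named for its induction by retinoic acid, was higher in females (0.31, SE 0.12, adjusted p = 1 in edgeR). With single mice left out, Hoxb4 kept its call in 7 of 12 fits and Rai1 in 4 of 6. Rai1 was one of the genes split among saline males, with 48.5, 55.6 and 10.9 CPM in saline males 1, 2 and 3. In females 13 of the 16 estimates were below 0, with a median of -0.14, against 51.8% of all genes and a median of -0.01. In males 0 were DE, 13 were below 0 and the median was -0.11, against 62.4% and -0.06, and with both sexes together the median was -0.10.

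Markers of other cell types that the dissection could hold moved in part with the groups. The 10 choroid plexus markers summed to 25.3, 24.0 and 90.4 CPM in saline females 4, 5 and 6, 28.4 to 40.0 CPM in morphine females, 48.6 to 65.1 CPM in saline males and 56.6 to 115 CPM in morphine males. In females 0 were DE, although 10 of 10 estimates were below 0, with a median of -0.745. Only saline female 6 was above the morphine females in the sum, and saline females 4 and 5 were below all of them. The estimates below 0 are therefore not a fall seen across the saline females. In males 10 of 10 were above 0, with a median of 0.82, and 6 were DE and higher, where 2.99% of all genes were DE. The 6 were Cldn2 (1.13), Folr1 (1.06), Otx2 (1.02), Clic6 (0.88), Slc4a5 (0.75) and Kl (0.68). The count was 1 without morphine male 4 or 5 or saline male 2, 2 without saline male 1, and 0 when the contrast was taken from all 12 mice. Kl also passed in the interaction (1.35), which became 0.45 and lost its call without saline female 6. The smooth muscle genes Acta2 (-0.61) and Myh11 (-0.54) were lower in females, with Myh11 also called in the interaction (0.66, kept in 3 of 12 fits with single mice left out), and the remaining markers of pericytes and smooth muscle were not DE.

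Of 6 cerebellar granule cell genes, Neurod1, Pax6 and Etv1 were not DE. The remaining 3 were DE and higher in both sexes together and in males, where 1.19% and 2.99% of all genes were DE. The 3 were Gabra6 (0.99 and 1.35), Cbln3 (0.77 and 1.08) and Fat2 (0.39 and 0.81), and Fat2 also passed in the interaction (0.89). Without morphine male 5, Gabra6 was 0.65 and 0.73 and Cbln3 was 0.45 and 0.50, of which only Gabra6 in males was still called. With single mice left out, the calls in both sexes together remained in 5 of 12 fits for Gabra6 and Cbln3 and 6 of 12 for Fat2, while Fat2 kept its call in every such fit in males and in the interaction. The dopamine transporter Slc6a3 was higher in females (1.84), where morphine female 3 had 3.84 CPM and the other females at most 0.551 CPM, and the change was 0.23 and not called without that mouse. Gjb6 of astrocytes (-0.36) and Mobp of oligodendrocytes (-0.42) were lower in males, but each call held in 3 of 7 alternative settings and, with single mice left out, in 1 of 6 fits for Gjb6 and 2 of 6 for Mobp. None of the markers of endothelial cells, microglia, neurons in general, hindbrain neurons or red blood cells was DE in any comparison. Forebrain markers summed to 1.57 to 3.60 CPM, and none was DE. The part of these cell types in the values of the 9 genes was not tested.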

How the data were processed

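RNA-seq (poly-A, 100 bp single-end reads, 12 libraries pooled on 1 lane) was available for 12 brainstems. Per the labels and the study's methods, the authors used Trimmomatic to trim reads, STAR to align them (mm10), and featureCounts to count them on Ensembl exons. The study calls the deposited counts normalized, but they are whole numbers whose totals differ between libraries and were treated as raw counts per gene. The study names sex and dam as covariates. Dam was not in the labels used here and was not fitted.

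Counts were scaled by TMM, filtered with filterByExpr and fitted in R 4.3.3 (edgeR 4.0.16, quasi-likelihood test), with sex as a covariate for both sexes together, each sex alone (3 against 3), and the interaction over 12 mice. The p values were adjusted over all genes tested, and single genes were also tested by exact permutation of the mice (20 regroupings in a sex, 400 within both). Levels are CPM with TMM factors over 12 libraries, and a prior count of 2 was used for log2 CPM. Intervals are 95% intervals from the fit, and counting error alone is smaller in deeper libraries. Lengths and positions came from GENCODE M21 on GRCm38, and promoters from RefSeq on GRCm38.p6. The members and gene lists were chosen with earlier results of these data known. The rule for names took the 9 members, list genes that were DE in any comparison, and the 5 genes most like each DE member. Other genes were named after their values were seen, and some items are not reported here. DESeq2 1.42.0, the exact test, 2 other scalings, 2 other filters, no sex covariate, the contrast within a sex from all 12 mice, the replicate number as a block and leaving out each mouse were tried. On simulated counts the females' fit called 89.2% of 195 genes changed by 1 log2 unit and 4.74% of unchanged genes. The males' fit called 80.7% of 197 changed genes and 5.14% of unchanged genes. In the measured data these fits called 1.81% and 2.99% of all genes. The simulation did not reproduce these shares, so its rates may not carry over.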

Additional observations from a re-analysis of the deposited data

Results flagged for a closer look

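The interaction (males minus females, log2 scale) passed the thresholds for 7 of the genes named, with unadjusted p under 0.05 and adjusted p = 0.985 in edgeR. A call in the interaction was itself a reason to name a list gene, so this count is not a test. Over all genes, 2.94% passed in the interaction. The 7 genes are listed next. These were Aldh1a2 (0.85) and Crabp2 (0.83) among the members, the meningeal transporters Slc6a13 (0.84) and Slc6a20a (0.87), Kl of the choroid plexus (1.35), Fat2 of granule cells (0.89) and Myh11 of smooth muscle (0.66). With single mice left out, Fat2 kept its call in 12 of 12 fits, Crabp2 and Slc6a20a in 6, Aldh1a2 in 5, Kl in 4, and Slc6a13 and Myh11 in 3, and Kl was 0.45 without saline female 6.

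Among the 6 saline or the 6 morphine mice, 1 mouse lay far from the others in 5 of 64 groups looked at. No member was among them. The cut-off gives about 1 in 20 by chance for unselected values. The genes outside the members were looked at because they were DE, so that rate is no yardstick for this count. The mice were saline male 2 for Acta2 (21.04 CPM), morphine male 5 for Cbln3 (21.8 CPM) and Gabra6 (19.1 CPM), morphine male 4 for Gjb6 (65.5 CPM), and saline male 1 for Slc6a3 (5.96 CPM).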

How the results depend on the processing

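The number of members called was 2 in females and in the interaction and 0 in males under each alternative test, scaling and filter, and 1 (Aldh1a2) in both sexes together with DESeq2 and with no filter on low counts. Leaving out single mice gave 0 to 2 in both sexes together, 1 to 2 in females, 0 to 2 in males and 0 to 3 in the interaction. The highest numbers in males and in the interaction came without saline male 3. In those fits 28.6% and 24.1% of all genes were DE. Over 567 values of the members under alternatives, 504 kept their direction and side of the thresholds, 15 lost and 10 gained a call, and 38 changed sign, none of them in a comparison where the gene was called. Scaling by total counts moved the median of all genes in males from -0.06 to 0.06 and the share of higher DE genes from 64.3% to 91.3% (51.1% to 72.7% in both sexes together, 54.7% to 81.2% in the interaction). With it Aldh1a2 (0.078) and Crabp1 (0.012) in males, Rarb (0.017) and Cyp26b1 (0.034) in the interaction, Aldh1a3 in females (0.0003) and the median of the other retinoid genes in males (0.042) had the opposite sign. Aldh1a3 in females was also above 0 with at least 10 counts in every library (0.0005) and from the fit of all 12 mice (0.0009). Leaving out single mice turned the sign of Rara (-0.31 to 0.071) and Crabp1 (-0.034 to 0.27) in both sexes together. In females it did so for Aldh1a1 (-0.27 to 0.0385), Aldh1a3 (-0.35 to 0.16), Cyp26b1 (-0.13 to 0.037) and Stra6 (-0.13 to 0.53). In males these were Aldh1a2 (-0.29 to 0.13), Rarb (-0.039 to 0.25), Crabp1 (-0.42 to 0.12) and Crabp2 (-0.12 to 0.12), and in the interaction Rarb (-0.32 to 0.093), Cyp26b1 (-0.27 to 0.051) and Stra6 (-0.25 to 0.42). The cause was not tested. The DE genes numbered 221, 328, 543 and 559 in the 4 comparisons, 754, 1094, 985 and 1665 without a filter, 218 in females from the fit of all 12 mice, and 177 to 458, 208 to 1482, 253 to 5341 and 290 to 4695 without single mice. Fits that leave 2 mice in a group rest on the spread of the rest. The replicate numbers run across the sexes, and the deviations of mice with the same number correlated at -0.36 to 0.18. With no dam in the labels, these values cannot tell whether a number marks a shared litter. With the number as a replicate block, 0 members were called and 204 genes were DE, with Aldh1a2 at -0.41. Counts of 18 to 67 per library limit Aldh1a3.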
